A study of Mus musculus with 9 samples.

Results

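The apelin and adrenomedullin system was read from 7 genes of the deposited FPKM table: the peptide genes Apln and Adm, the receptor genes Aplnr and Calcrl, and the receptor accessory genes Ramp1, Ramp2 and Ramp3. They were found by symbol among 25108 genes and gene models, each on 1 entry, and all 7 passed the filter on low values that 15678 entries passed. FPKM counts sequenced fragments per length of the gene and per library size, so levels of different genes can be set side by side. Retinas of C57BL/6 mice were taken at postnatal day 17 in 3 groups of 3 libraries. RA WT were wild type mice kept in room air, OIR WT were wild type mice with oxygen-induced retinopathy (OIR), and OIR KO were IL-19 KO mice with OIR. OIR is a model in which pups breathe high oxygen, lose retinal capillaries and, once back in normal air, become short of oxygen in the bare areas and grow new vessels there. A room air group of knockout mice was not analysed here. Genotype was therefore compared within OIR only, and the effect of OIR could not be compared between the genotypes. The labels do not say how the knockout was made, or whether a library came from 1 animal or from a pool. Y-linked genes named below were at 0 FPKM in RA WT 2 and OIR KO 1 but not in the other libraries of those groups. The libraries of RA WT, and those of OIR KO, were therefore not all drawn from the same material. All OIR WT libraries held Y-linked RNA, so these genes do not show whether those libraries came from different material. The main tests use a spread shared by all 9 libraries, and the part of OIR WT in it may be technical only.

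Apelin is a small secreted peptide that acts on the G protein-coupled receptor encoded by Aplnr, and in growing retinal vessels it is known as a product of endothelial tip cells. Adrenomedullin is a vasodilator peptide whose gene is a target of hypoxia-inducible factors. Its receptor is the protein encoded by Calcrl joined to an accessory RAMP protein: with RAMP2 or RAMP3 the pair binds adrenomedullin, and with RAMP1 it binds calcitonin gene-related peptide (CGRP).

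The promoter sequences of Adm and Apln are shown because both genes rose steeply in OIR, and that of Ramp3 because its level hardly moved while its promoter held the same motif. RefSeq promoter windows (GRCm38.p6) existed for 5 of the 7 genes, and the 250 bases before the annotated start were searched on both strands for the core of the hypoxia response element, ACGTG or GCGTG, and for the AP-1 site TGANTCA. Capitals mark GCGTG, which reads CACGC where it lies on the opposite strand. Each sequence runs 5′ to 3′ along its gene.
Adm (chr7:110627407-110627656, plus strand): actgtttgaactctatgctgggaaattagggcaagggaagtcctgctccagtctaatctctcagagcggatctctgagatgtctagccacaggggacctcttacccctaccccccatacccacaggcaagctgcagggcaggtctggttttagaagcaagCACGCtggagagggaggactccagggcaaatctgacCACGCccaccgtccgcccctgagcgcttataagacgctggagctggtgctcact
Apln (chrX:48034854-48035103, minus strand): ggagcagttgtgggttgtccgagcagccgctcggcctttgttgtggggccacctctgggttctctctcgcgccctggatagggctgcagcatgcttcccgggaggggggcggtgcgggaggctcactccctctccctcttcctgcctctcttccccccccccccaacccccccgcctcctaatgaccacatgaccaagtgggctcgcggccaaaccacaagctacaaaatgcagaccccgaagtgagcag
Ramp3 (chr11:6658283-6658532, plus strand): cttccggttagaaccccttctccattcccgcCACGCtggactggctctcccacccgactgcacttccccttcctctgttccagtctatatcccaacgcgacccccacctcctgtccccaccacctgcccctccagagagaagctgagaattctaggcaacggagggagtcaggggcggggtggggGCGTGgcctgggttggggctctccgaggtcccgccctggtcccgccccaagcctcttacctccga
In the Adm window GCGTG was found on the opposite strand 90 to 86 and 54 to 50 bases before the start. The Ramp3 window held it on the opposite strand 219 to 215 bases and on the gene's strand 65 to 61 bases before the start. The windows of Apln, Calcrl and Ramp1 held none of the 3 motifs, and ACGTG and TGANTCA were found in none of the 5 windows. Among 32851 promoter windows of this length 28.2% held GCGTG, 16.6% ACGTG and 6.75% TGANTCA, and 38.6% held ACGTG or GCGTG. A match of these letters is a description and not evidence of a bound site. Its absence from these 250 bases says nothing of sites elsewhere at the gene. Whether the motif bears on the level of any of these genes was not tested.

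The libraries carried Gnat1, the rod transducin gene that marks retina, at 2764 to 4115 FPKM. Il19, the targeted gene, was listed at 0 in every library except RA WT 1 (0.0406 FPKM), so its level did not check the genotype labels. Uty, Kdm5d, Ddx3y and Eif2s3y, which lie on the Y chromosome, had 0 FPKM in RA WT 2 and OIR KO 1. Each was lower in RA WT 3 than in RA WT 1, as with Ddx3y at 6.80 against 13.6 FPKM and Uty at 3.21 against 5.48. Every OIR WT library held all of them, so Y-linked levels were not balanced between the groups. Whether RA WT 3 mixed animals of both sexes was not tested. Lens crystallins were highest in RA WT 1 and OIR KO 2, where 4 lens genes summed to 22.4 and 14.1 FPKM, against at most 3.52 FPKM elsewhere. Along the leading principal component, which held 47.2% of the variance, OIR KO 2 (32.5) lay with OIR WT 1 and OIR WT 3 (28.9 and 31.3), while OIR KO 1 (7.96), OIR KO 3 (-3.30) and OIR WT 2 (11.7) lay between those and RA WT (-37.2 to -35.9). Absolute depth is unknown, and relative depth estimated from the steps between low values lay between 0.853 and 1.14 of the mean.

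In OIR WT against RA WT, 3 of the 7 genes changed: Apln and Adm rose and Ramp1 fell. A gene was called changed at an adjusted p under 0.05 in limma over all 15678 genes, which called 16.0% of them, 8.04% as higher and 7.92% as lower. In OIR KO against RA WT 4 of the 7 changed, Apln, Adm and Aplnr upwards and Ramp1 downwards, where 10.4% of all genes were called, 4.75% as higher and 5.69% as lower. Both comparisons use the same RA WT libraries and are not independent. In OIR KO against OIR WT limma called 0 of the 7 genes and 0.134% of all genes, 0.0574% as higher and 0.0765% as lower. At an unadjusted p under 0.05 that comparison held 1 of the 7, Aplnr, against 9.91% of all genes. The corresponding counts at an unadjusted p under 0.05 against RA WT were 4 of 7 in OIR WT and 4 of 7 in OIR KO, where 30.4% and 27.6% of all genes were under it. Groups without overlap were counted too. OIR WT lay wholly above RA WT in 3 members and wholly below in 1, against 17.8% and 17.2% of all genes (35.0% in either direction). OIR KO lay wholly above RA WT in 5 (Apln, Adm, Aplnr, Calcrl and Ramp3) and below in 1, against 17.3% and 15.4% (32.7% in either direction), and wholly above OIR WT in 2 and below in 0, against 9.73% and 7.98% (17.7% in either direction). The median log2 difference over the 7 genes was 0.16, 0.28 and 0.55 for OIR WT minus RA WT, OIR KO minus OIR WT and OIR KO minus RA WT, beside 0.02, -0.00 and 0.02 over all genes tested.

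**Figure D1:**
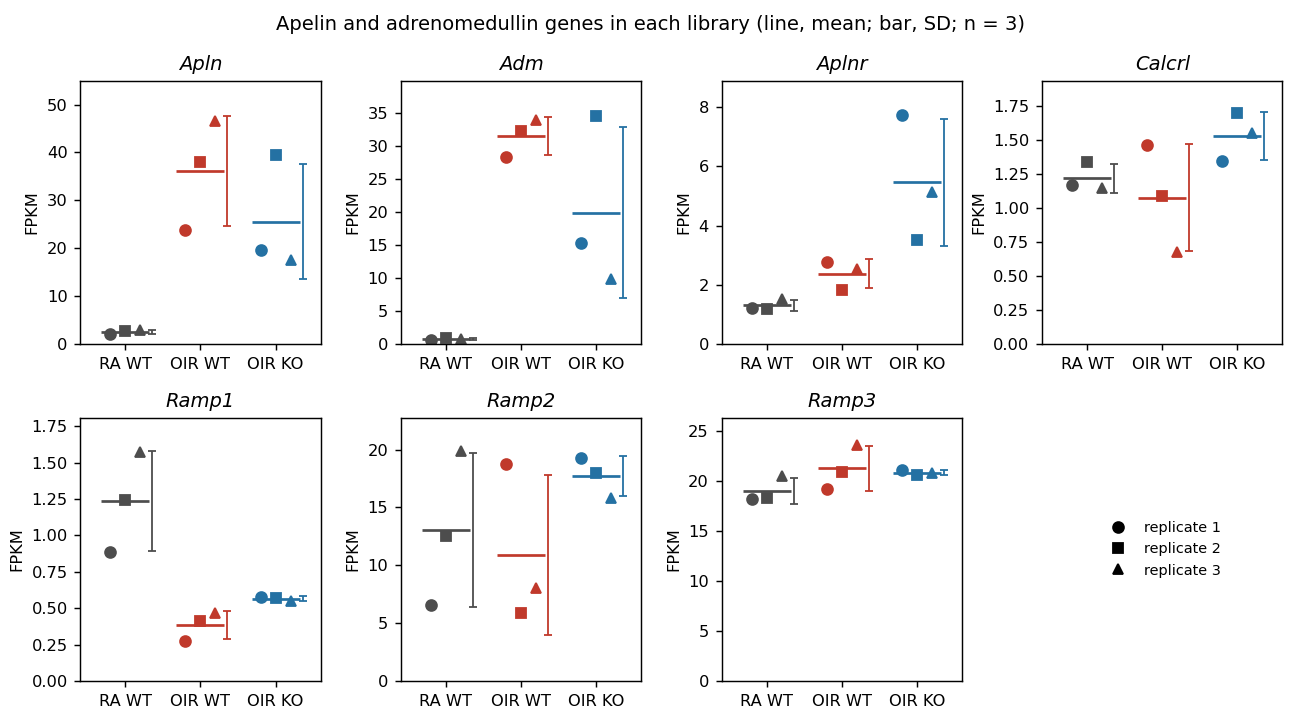
FPKM (vertical axes, linear and starting at 0) of the 7 genes in the 9 libraries, by group. Marker shapes give the replicate number, lines the group mean and bars the SD over 3 libraries. Apln and Adm were higher in every OIR library than in every RA WT library, Aplnr was highest in OIR KO, Ramp1 was lower in every OIR library, and Ramp2 varied within RA WT and OIR WT nearly as widely as over all libraries.

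**Figure D2:**
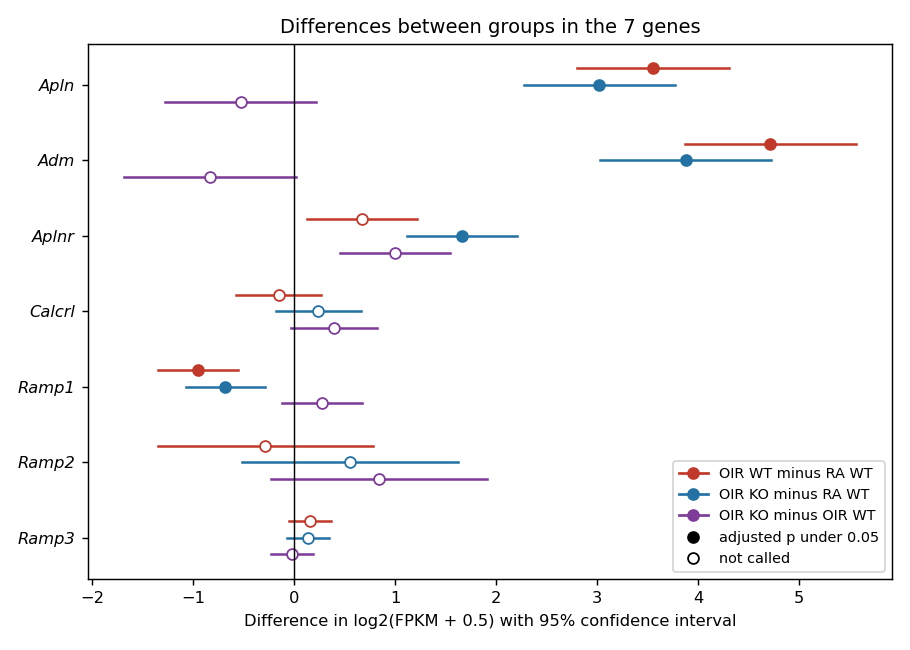
Differences between groups in log2(FPKM + 0.5) for the 7 genes, with 95% confidence intervals from limma. Filled points passed an adjusted p under 0.05: Apln, Adm and Ramp1 in both comparisons with RA WT and Aplnr in OIR KO minus RA WT.

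Apln encodes the apelin precursor (ENSMUSG00000037010, GRCm38 chromosome X, 48025146 to 48034853, minus strand). It was at 2.05, 2.67 and 2.88 FPKM in RA WT 1 to 3, at 23.9, 38.1 and 46.5 FPKM in OIR WT 1 to 3, and at 19.7, 39.4 and 17.6 FPKM in OIR KO 1 to 3. Every OIR library lay above every RA WT library, and the OIR groups overlapped. The rise in OIR WT was 3.55 on the log2(FPKM + 0.5) scale (SE 0.33, limma adjusted p = 0.00102), and that in OIR KO was 3.02 (SE 0.33, limma adjusted p = 0.00280). On this scale a fold change is understated where FPKM is low. Between OIR KO and OIR WT the difference in Apln did not pass, with a log2 value of -0.53, a 95% confidence interval from -1.28 to 0.22 and a limma adjusted p of 0.652. It was -0.89 without OIR KO 2, -0.80 without OIR WT 1, -0.32 without OIR KO 3 and -0.33 without OIR WT 3, and passed in none of these fits (limma adjusted p from 0.202 to 0.880). Apln is X-linked, and with a covariate made from the Y-linked genes its log2 rise was 3.50 in OIR WT and 3.01 in OIR KO (limma adjusted p = 0.00633 and 0.00691).

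Adm encodes the adrenomedullin precursor (ENSMUSG00000030790, chromosome 7, 110627661 to 110629820, plus strand). It was at 0.565, 0.876 and 0.736 FPKM in RA WT 1 to 3, at 28.4, 32.3 and 34.0 FPKM in OIR WT 1 to 3, and at 15.3, 34.6 and 9.86 FPKM in OIR KO 1 to 3. The 3 OIR WT libraries lay close together, with a coefficient of variation of 9.11%, while the OIR KO libraries spread 3.51-fold from the lowest to the highest (coefficient of variation 65.1%). The log2 rise was 4.71 in OIR WT (SE 0.37, limma adjusted p = 0.000505), the gene ranking 25 by p among 15678. In OIR KO the log2 rise was 3.88 (SE 0.37, limma adjusted p = 0.00180). Between OIR KO and OIR WT the log2 difference of Adm was -0.84, with a 95% confidence interval from -1.69 to 0.01 and a limma adjusted p of 0.513. OIR KO 2 exceeded all OIR WT libraries and the other two OIR KO libraries lay below all of them. Without OIR KO 2 the difference was -1.32 and was called (limma adjusted p = 0.0384), with OIR KO then made of 2 libraries. Without OIR KO 3 it was -0.44 (limma adjusted p = 0.760). Over all 20 alternatives the adjusted p of this difference lay between 0.0384 and 0.903.

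Within OIR KO, Apln and Adm were both highest in OIR KO 2, lower in OIR KO 1 and lowest in OIR KO 3. Gfap, the intermediate filament gene of astrocytes and reactive Müller glia, followed the same order, at 173, 45.5 and 24.3 FPKM. The 4 astrocyte markers, Gfap among them, summed to 182, 54.8 and 32.3 FPKM in that order, against 54.7 to 157 FPKM in OIR WT and 16.1 to 26.7 in RA WT, and none was listed at 0. Gfap made up most of the OIR KO sums, so they largely repeat its order. Of the other astrocyte markers Pdgfra followed it, while Pax2 and S100b were highest in OIR KO 1. S100b was lowest in OIR KO 2, at 4.14 FPKM. Of the 3 astrocyte markers that were tested 2 rose and 1 fell in OIR WT against RA WT and 0 were called in OIR KO, where 3 had an unadjusted p under 0.05. The 4 erythrocyte genes, of which 4 rose in OIR WT and 0 in OIR KO (0 at an unadjusted p under 0.05), summed to 817 FPKM in OIR KO 2, 84.1 in OIR KO 1 and 83.0 in OIR KO 3, against 379 to 1063 FPKM in OIR WT and 60.6 to 112 in RA WT, and none was listed at 0. The same order held for the summed markers of endothelium (191, 170 and 140 FPKM) and of pericytes and smooth muscle (138, 99.9 and 82.8 FPKM). It held too for microglia and macrophages (15.5, 14.5 and 11.1 FPKM), each list with none at 0. The reverse order held for the sums of Müller glia (961, 1183 and 1353 FPKM) and ganglion cell markers (123, 187 and 207 FPKM). Single genes did not all follow their sums. Erythrocyte Hba-a1 and Alas2 were lower in OIR KO 1 (26.1 and 0.457 FPKM) than in OIR KO 3 (32.8 and 0.517 FPKM). Endothelial Cldn5, Tie1, Emcn and Icam2 were highest in OIR KO 1, and Higd1b and Myh11 of pericytes and smooth muscle also departed. Of the microglia and macrophage markers only Aif1 and Cd68 followed, and P2ry12 was lowest in OIR KO 2. Slc1a3 ran against the Müller glia sum (67.3, 57.3 and 54.5 FPKM), and Abca8a, Dkk3 and the ganglion cell gene Rbpms followed neither order. The part of these differences between libraries in the levels of Apln and Adm was not tested. Along the leading principal component OIR KO 2, OIR KO 1 and OIR KO 3 had that order too (32.5, 7.96 and -3.30). The share of all genes with that order was not counted, so nothing particular to Apln, Adm or these cell types is read from it. The ratio of Adm to Apln FPKM was 0.286 ± 0.0371 in RA WT, against 0.923 ± 0.238 in OIR WT and 0.738 ± 0.161 in OIR KO (SD, n = 3), so Adm stood well below Apln in room air and near it in OIR.

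The genes with profiles nearest to Apln and Adm over the 9 libraries were sought among 13980 genes with a symbol, an Ensembl ID and values past the filter. Likeness was the mean absolute difference in log2(FPKM + 0.5) after subtraction of each gene's own mean. Nearest to Apln were Esm1, a marker of endothelial tip cells (0.261), Prnd (0.296) and C4b, a complement component (0.299), where the median over all genes was 1.45. Esm1 averaged 0.0399 ± 0.0158 FPKM in RA WT, against 6.68 ± 3.29 in OIR WT and 3.96 ± 3.11 in OIR KO. Nearest to Adm were Ndufa4l2, a mitochondrial protein gene induced by hypoxia (0.288), A2m (0.489) and Esm1 (0.529), beside a median of 1.90. Ndufa4l2 averaged 5.36 ± 1.07 FPKM in RA WT, against 141 ± 19.2 in OIR WT and 112 ± 26.4 in OIR KO. These genes were chosen for their likeness, so their group means are a description. Esm1 and Prnd, with means of 0.0399 and 0.111 FPKM in RA WT, passed the filter on low values through OIR libraries only. At such levels the added 0.5 limits the size of the rise. Likeness to Apln or Adm on this scale is therefore not an equal fold change in FPKM.

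Aplnr encodes the apelin receptor (ENSMUSG00000044338, chromosome 2, 85136225 to 85139923, plus strand). It was at 1.20, 1.19 and 1.53 FPKM in RA WT 1 to 3, at 2.78, 1.84 and 2.53 FPKM in OIR WT 1 to 3, and at 7.73, 3.50 and 5.12 FPKM in OIR KO 1 to 3. The 3 groups did not overlap, with RA WT lowest and OIR KO highest. Aplnr rose in OIR KO against RA WT by 1.66 on the log2 scale (SE 0.24, limma adjusted p = 0.00486). In OIR WT it was 0.67 above RA WT on that scale (SE 0.24) and did not pass the test (limma adjusted p = 0.0952). That difference passed in a fit of these groups alone (limma adjusted p = 0.0369) and in fits without OIR KO 1 (0.0496) or OIR KO 2 (0.0410), at the same size of difference and with an SE of 0.18 to 0.19. Between OIR KO and OIR WT the log2 difference of Aplnr was 1.00, with a 95% confidence interval from 0.45 to 1.54, an unadjusted p of 0.00226 and a limma adjusted p of 0.220. It ranked 161 by p among 15678 genes, and its adjusted p lay between 0.0651 and 0.601 over all alternatives. Aplnr and Ramp1 were the members that lay wholly above OIR WT in OIR KO, as 9.73% of all genes did.

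The receptor and its ligand ordered the OIR KO libraries differently. OIR KO 2, the library with the highest Apln of its group, had its lowest Aplnr. The ratio of Apln to Aplnr FPKM was 1.70 to 2.26 in RA WT, 8.61 to 20.7 in OIR WT and 2.55 to 11.3 in OIR KO. Only OIR KO 2, at 11.3, came within the OIR WT range, and OIR KO 1 and OIR KO 3 were at 2.55 and 3.44.

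Calcrl encodes the calcitonin receptor-like receptor (ENSMUSG00000059588, chromosome 2, 84330626 to 84425411, minus strand). It was at 1.17, 1.34 and 1.15 FPKM in RA WT 1 to 3, at 1.47, 1.09 and 0.678 FPKM in OIR WT 1 to 3, and at 1.35, 1.70 and 1.55 FPKM in OIR KO 1 to 3. Its log2 difference from RA WT was -0.15 in OIR WT (95% confidence interval -0.58 to 0.27, limma adjusted p = 0.623) and 0.24 in OIR KO (-0.18 to 0.66, limma adjusted p = 0.453). The OIR WT value turned to 0.04 without OIR WT 3, the library with the lowest Calcrl. Between OIR KO and OIR WT the difference was 0.39 (-0.03 to 0.81, limma adjusted p = 0.541). With Adm up and Calcrl near its room air level, the ratio of Adm to Calcrl FPKM went from 0.483 to 0.653 in RA WT to 19.3 to 50.2 in OIR WT and 6.35 to 20.4 in OIR KO.

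Ramp1 encodes the accessory protein that makes the Calcrl product a CGRP receptor (ENSMUSG00000034353, chromosome 1, 91179822 to 91225196, plus strand). It was at 0.886, 1.24 and 1.58 FPKM in RA WT 1 to 3, at 0.275, 0.412 and 0.467 FPKM in OIR WT 1 to 3, and at 0.580, 0.571 and 0.547 FPKM in OIR KO 1 to 3. Every OIR library lay below every RA WT library. The OIR WT values were under the 0.5 FPKM of the filter and the OIR KO values just above it, so Ramp1 was near the floor there. Mean FPKM in OIR WT was 0.312 of that in RA WT, a larger fall than the log2(FPKM + 0.5) scale shows. Ramp1 fell by 0.96 on the log2 scale in OIR WT (SE 0.18, limma adjusted p = 0.00787) and by 0.68 in OIR KO (SE 0.18, limma adjusted p = 0.0382). The OIR KO call was lost in a fit of these groups alone (limma adjusted p = 0.0659), with the Y-linked covariate (0.0558), and on leaving out any OIR KO library, RA WT 2, RA WT 3 or OIR WT 3 (0.0504 to 0.118). Between OIR KO and OIR WT the difference was 0.28 (95% confidence interval -0.12 to 0.67, limma adjusted p = 0.659), although the OIR groups did not overlap. Of 6 Müller glia markers 5 fell in OIR WT and 2 in OIR KO against RA WT, and none rose. They summed to 1515 to 1964 FPKM in RA WT, 670 to 1038 in OIR WT and 961 to 1353 in OIR KO, with none listed at 0. Of 4 ganglion cell markers 2 fell in each comparison with RA WT, with sums of 321 to 388, 198 to 223 and 123 to 207 FPKM and none at 0. The part of these markers' cells in the level of Ramp1 was not tested. Nearest to Ramp1 by the same measure were B630019K06Rik (0.0743), S1pr1, a receptor for sphingosine 1-phosphate (0.0803), and 1700023F06Rik (0.0811), where the median over all genes was 0.390. S1pr1 averaged 16.4 ± 2.65 FPKM in RA WT, against 8.71 ± 1.11 in OIR WT and 11.0 ± 0.566 in OIR KO. It lies far above the added 0.5 and Ramp1 close to it, so likeness to Ramp1 is not an equal fold change in FPKM either.

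Ramp3 encodes an accessory protein of adrenomedullin receptors (ENSMUSG00000041046, chromosome 11, 6658521 to 6677475, plus strand) and was the steadiest of the 7 genes. It was at 18.2, 18.4 and 20.5 FPKM in RA WT 1 to 3, at 19.3, 20.9 and 23.7 FPKM in OIR WT 1 to 3, and at 21.1, 20.6 and 20.9 FPKM in OIR KO 1 to 3. Its log2 difference was 0.16 for OIR WT minus RA WT (95% confidence interval -0.05 to 0.36, limma adjusted p = 0.294), 0.13 for OIR KO minus RA WT (-0.08 to 0.34, limma adjusted p = 0.401) and -0.02 for OIR KO minus OIR WT (-0.23 to 0.18, limma adjusted p = 0.970). These intervals were the narrowest among the 7 genes. A pseudogene on the opposite strand, Gm11978, shares 101 exonic bases with Ramp3, or 7.32% of the exonic bases of Ramp3, and whether counting used strand is not stated in these sources.

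Ramp2 encodes the accessory protein of the main vascular adrenomedullin receptor (ENSMUSG00000001240, chromosome 11, 101246028 to 101259546, plus strand). It was at 6.60, 12.5 and 19.9 FPKM in RA WT 1 to 3, at 18.8, 5.86 and 7.99 FPKM in OIR WT 1 to 3, and at 19.3, 18.0 and 15.8 FPKM in OIR KO 1 to 3. The spread was 3.01-fold within RA WT and 3.20-fold within OIR WT, against 1.22-fold within OIR KO. Ramp2 passed no test, with log2 differences of -0.29 for OIR WT minus RA WT (95% confidence interval -1.36 to 0.78, limma adjusted p = 0.720), 0.55 for OIR KO minus RA WT (-0.51 to 1.62, limma adjusted p = 0.489) and 0.84 for OIR KO minus OIR WT (-0.23 to 1.91, limma adjusted p = 0.613). The direction in OIR WT turned without RA WT 3 (log2 0.074) or OIR WT 2 (log2 0.051).

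The value of Ramp2 is uncertain because the gene overlaps Vps25, a subunit gene of the endosomal sorting machinery, on the same strand (chromosome 11, 101253707 to 101259549). In the GENCODE M21 annotation the genes share 1103 exonic bases, which is 33.4% of the exonic bases of Ramp2 and 67.2% of those of Vps25, so that fragments from the shared stretch could be assigned to either. Vps25 was at 25.3, 28.1 and 26.0 FPKM in RA WT 1 to 3, at 13.6, 32.1 and 31.2 FPKM in OIR WT 1 to 3, and at 32.1, 18.6 and 18.9 FPKM in OIR KO 1 to 3. In OIR WT the library with the most Ramp2, OIR WT 1, had the least Vps25, and the libraries low in Ramp2 were high in Vps25. RA WT and OIR KO did not show this opposition: Ramp2 spread 3.01-fold over RA WT while Vps25 stayed between 25.3 and 28.1 FPKM, and OIR KO 1 was highest of its group in both. The part of the overlap in the spread of Ramp2 was not tested.

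**Figure D3:**
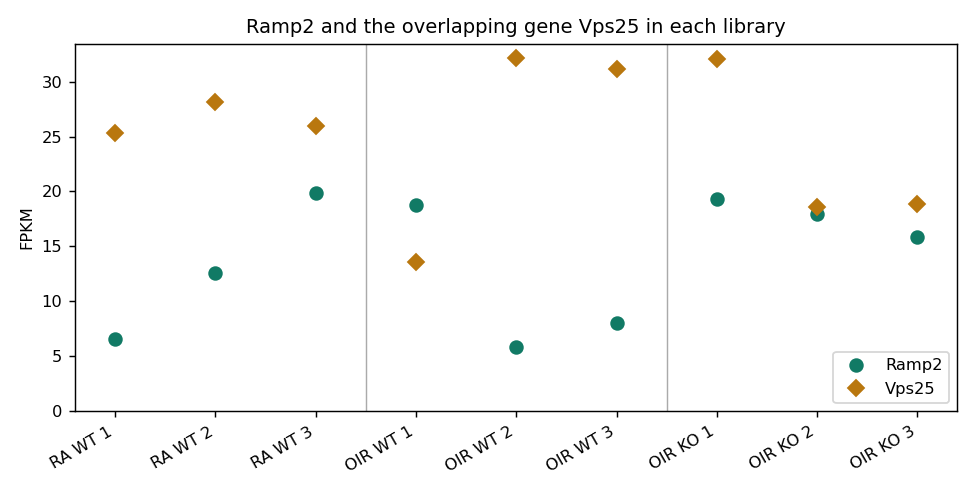
FPKM (linear axis starting at 0) of Ramp2 and of Vps25, which shares 1103 exonic bases with it, in each of the 9 libraries. Ramp2 ranged from 5.86 to 19.9 FPKM and Vps25 from 13.6 to 32.1 FPKM. In OIR WT the library highest in Ramp2 was lowest in Vps25.

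Set side by side per length, Ramp3 was the most abundant of the 7 genes in RA WT, at 19.0 ± 1.30 FPKM, followed by Ramp2 at 13.0 ± 6.65, whose highest library reached into the Ramp3 range. Apln followed at 2.53 ± 0.430 FPKM, above Aplnr (1.31 ± 0.192), Ramp1 (1.23 ± 0.345) and Calcrl (1.22 ± 0.105), which did not differ beyond their spread, and Adm was lowest at 0.726 ± 0.156, with its highest library just under the lowest of Ramp1. In OIR WT the order was Apln (36.2 ± 11.4), Adm (31.6 ± 2.88), Ramp3 (21.3 ± 2.22), Ramp2 (10.9 ± 6.92), Aplnr (2.38 ± 0.487), Calcrl (1.08 ± 0.396) and Ramp1 (0.385 ± 0.0990). Apln and Adm overlapped there, while Adm lay above Ramp3 and Ramp3 above Ramp2 in every OIR WT library. In OIR KO Apln (25.6 ± 12.05), Ramp3 (20.9 ± 0.261), Adm (19.9 ± 13.0) and Ramp2 (17.7 ± 1.74) followed each other closely. Apln and Adm spread across the levels of both RAMP genes, and Ramp3 lay above Ramp2 in every OIR KO library. Aplnr (5.45 ± 2.13) lay above Calcrl (1.53 ± 0.176) and Ramp1 (0.566 ± 0.0170). The share of Ramp3 in the summed RAMP FPKM ranged over libraries from 48.9 to 70.8% in RA WT, from 50.3 to 76.9% in OIR WT and from 51.5 to 56.0% in OIR KO. The summed RAMP FPKM was 21.9 to 47.4 times that of Calcrl over all libraries. The share and the sum contain Ramp2, so the limit from its overlap with Vps25 holds for them and for the rank of Ramp2.

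Receptor levels were then read against endothelial cells, in which Aplnr, Calcrl and Ramp2 are known to be expressed. In bulk retina, fewer cells of a type and less RNA per cell cannot be told apart. Of 12 pan-endothelial markers 5 rose and 0 fell in OIR WT against RA WT, with a median log2 difference of 0.67, and 8 rose and 0 fell in OIR KO against RA WT, with a median of 0.92. Limma called 0 of the 12 between OIR KO and OIR WT, where 2 had an unadjusted p under 0.05. The markers summed to 78.7 to 108 FPKM in RA WT, against 112 to 152 in OIR WT and 140 to 191 in OIR KO, and none was listed at 0. Of 9 pericyte and smooth muscle markers 6 rose in OIR WT and 4 in OIR KO against RA WT, and 0 fell.

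Against the mean log2 level of the 12 endothelial markers in the same library, Aplnr was at -1.65 ± 0.21 in RA WT, against -1.61 ± 0.15 in OIR WT and -0.86 ± 0.68 in OIR KO (SD, n = 3). RA WT and OIR WT differed by 0.04 in this relative level (exact two-sided permutation p = 0.9, where 3 against 3 libraries cannot give less than 0.1), and the sign turned in some alternatives. OIR KO 1 and OIR KO 3, at -0.34 and -0.61, lay above every other library, while OIR KO 2, at -1.63, lay among them. The OIR KO group was 0.75 above OIR WT (exact two-sided permutation p = 0.3) and 0.79 above RA WT (exact two-sided permutation p = 0.3). Single libraries decided their size: they were 1.13 and 1.17 without OIR KO 2 (exact two-sided permutation p = 0.1 for each, the smallest possible), and 0.49 and 0.53 without OIR KO 1 (exact two-sided permutation p = 0.3 and 0.4).

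The markers' own mean log2 level was 2.49 in RA WT, 3.12 in the OIR WT group and 3.37 in the OIR KO group, so a gene with a steady level falls on this relative scale. The median relative difference over all genes was -0.61 for OIR WT minus RA WT and -0.85 for OIR KO minus RA WT. Relative Calcrl was at -1.71 ± 0.20 in RA WT, against -2.49 ± 0.55 in OIR WT and -2.35 ± 0.25 in OIR KO. Its difference from RA WT was -0.78 in OIR WT and -0.64 in OIR KO (exact two-sided permutation p = 0.1 for each, the smallest that 3 against 3 libraries can give). Both OIR groups lay wholly below RA WT, but so did 59.2% of all genes in OIR WT and 80.5% in OIR KO on this scale, and nothing particular to Calcrl is read from it. Without OIR WT 3 the OIR WT value was -0.47. The OIR groups differed by 0.14 in relative Calcrl (exact two-sided permutation p = 0.8). Ramp2 was at 1.13 ± 0.57, 0.22 ± 0.76 and 0.81 ± 0.20 in RA WT, OIR WT and OIR KO. All groups overlapped in relative Ramp2, with exact two-sided permutation p between 0.3 and 0.4. With 1 library left out the relative Ramp2 difference lay between -1.35 and -0.61 for OIR WT minus RA WT, between 0.34 and 1.03 for OIR KO minus OIR WT and between -0.60 and -0.02 for OIR KO minus RA WT, and the limit from the overlap with Vps25 holds for it too.

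**Figure D4:**
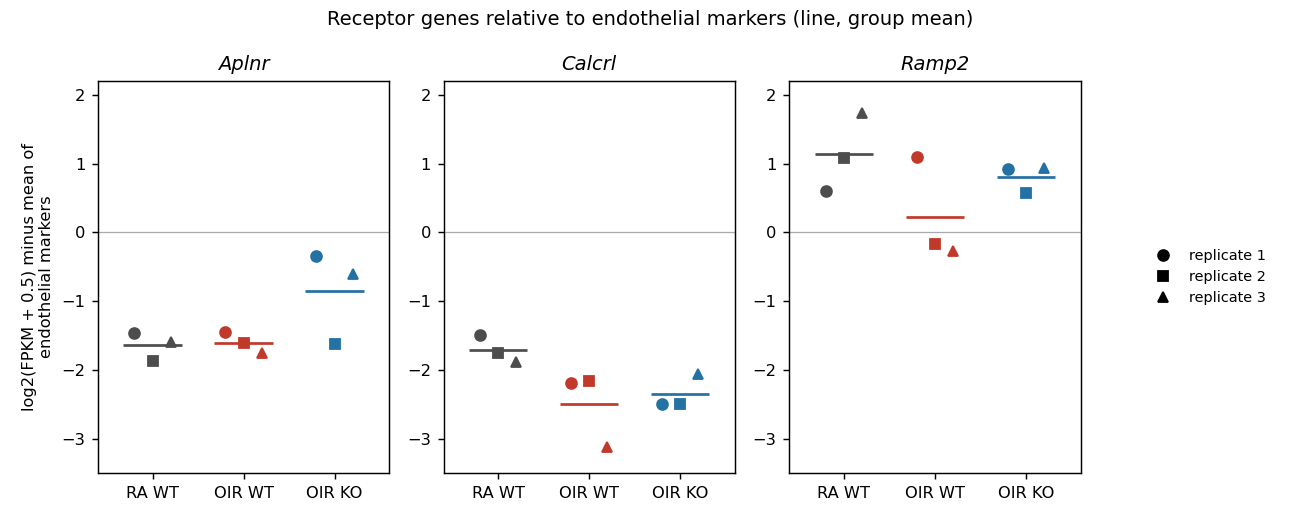
log2(FPKM + 0.5) of Aplnr, Calcrl and Ramp2 minus the mean of 12 endothelial markers in the same library (log2 scale), by group. Lines are group means of 3 libraries and marker shapes the replicate number. Relative Calcrl was lower in all 6 OIR libraries than in the 3 RA WT libraries, as were 59.2% of all genes in OIR WT and 80.5% in OIR KO, relative Aplnr stood out in OIR KO 1 and OIR KO 3, and relative Ramp2 overlapped between groups.

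Among 33 further genes of the pathway, 25 passed the filter. In OIR WT against RA WT 1 rose and 2 fell, in OIR KO against RA WT 2 rose and 2 fell, and limma called 0 between OIR KO and OIR WT, where 5 had an unadjusted p under 0.05. Over all genes limma called 16.0%, 10.4% and 0.134% in these comparisons, and 9.91% had an unadjusted p under 0.05 between OIR KO and OIR WT. The counts are therefore not read as a response of the pathway. The median log2 difference over the 25 was -0.05, 0.02 and 0.06 in these comparisons. Of 5 other ligand genes 3 were tested and 1 rose. Adm2, which encodes adrenomedullin 2, a related peptide of the same receptors, was listed at 0 in every RA WT library and rose in OIR WT, to 1.10, 0.573 and 1.24 FPKM (limma adjusted p = 0.00461). It passed the filter on low values through OIR libraries only, so it was admitted by the groups where it is high, and its call and its place in the count above support nothing further. In OIR KO Adm2 was at 0.156, 0.524 and 0.614 FPKM (limma adjusted p = 0.0520), a difference that passed with a pseudocount of 0.1, TPM scaling or neither trend nor robust option, and without OIR KO 1 or OIR WT 2 (0.0136 to 0.0451). Apela, the gene of a second ligand of the apelin receptor, lay between 2.65 and 5.82 FPKM in all libraries and Calca, which encodes calcitonin and CGRP, between 0.625 and 1.87 FPKM. Iapp was listed at 0 in every library.

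Of 8 other receptor and RAMP partner genes 4 were tested and limma called 0 in any comparison, with 0 at an unadjusted p under 0.05. They include Ackr3, a scavenger receptor for adrenomedullin and a chemokine, which lay between 0.995 and 2.23 FPKM. Calcr, the calcitonin receptor gene and another RAMP partner, did not exceed 0.0816 FPKM in any library. Of 7 genes of peptide processing, binding and degradation 5 were tested. Pam, the enzyme that amidates adrenomedullin at its end, fell from 18.1 ± 2.09 FPKM in RA WT to 12.9 ± 1.07 in OIR WT (log2 -0.47, limma adjusted p = 0.0180) and 13.6 ± 0.868 in OIR KO (log2 -0.39, limma adjusted p = 0.0485). The OIR WT call was lost without any 1 of RA WT 2, RA WT 3 and the first and second OIR WT library, with an adjusted p of at most 0.0613. The OIR KO call of Pam was lost when any 1 of 7 libraries was left out. Prcp, a carboxypeptidase, rose from 2.52 ± 0.365 FPKM in RA WT to 4.56 ± 0.460 in OIR KO (log2 0.75, limma adjusted p = 0.0103) and was at 3.43 ± 0.309 in OIR WT (log2 0.38, limma adjusted p = 0.0829). Mme, the gene of neprilysin, a protease that cleaves apelin, did not pass the filter, at no more than 0.222 FPKM.

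Of 13 signalling genes 1 fell in each comparison with RA WT and none rose. It was Gnai1, an inhibitory G protein subunit of the kind that apelin receptors couple to, which went from 10.7 ± 0.499 FPKM in RA WT to 8.24 ± 0.613 in OIR WT (log2 -0.35, limma adjusted p = 0.0467) and 6.54 ± 0.728 in OIR KO (log2 -0.67, limma adjusted p = 0.00618). The OIR WT call of Gnai1 was lost with no filter on low values, with TPM scaling, with neither trend nor robust option, in a fit of these groups alone, with the Y-linked covariate, and without any 1 of 7 libraries. The related subunit genes Gnai2 and Gnai3 had log2 differences of 0.36 and 0.37 in OIR WT and did not pass (limma adjusted p = 0.0994 and 0.0677).

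**Figure D5:**
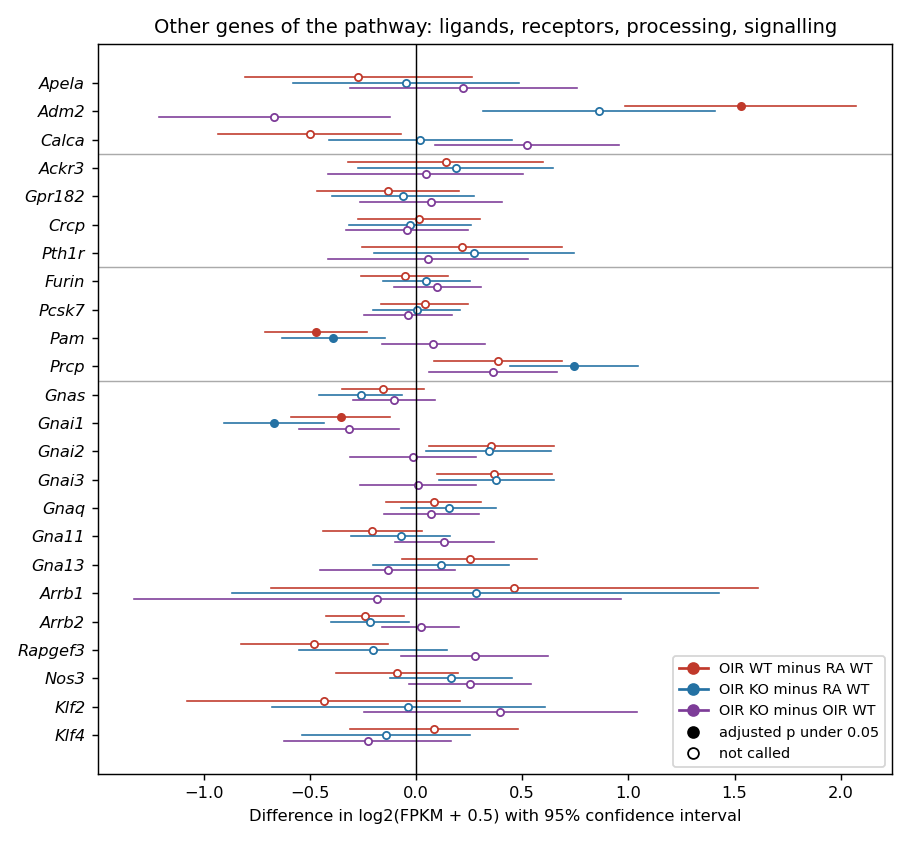
Differences between groups in log2(FPKM + 0.5) with 95% confidence intervals for tested genes of the pathway beyond the 7, in 4 blocks of ligands, receptors, processing and signalling. Filled points passed an adjusted p under 0.05: Adm2, Pam and Gnai1 in OIR WT minus RA WT, and Pam, Prcp and Gnai1 in OIR KO minus RA WT.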

How the data were processed

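Retinal mRNA was measured in 9 libraries, 3 per group as titled in the labels. Per the labels' protocols, RNA was extracted with Trizol and NEBNext Ultra chemistry was used for the libraries. HISAT2 and GRCm38 are named per the submitters' processing notes. Not given in the sources used here: versions, quantifying program, annotation and strand setting. FPKM values were deposited by the authors, 1 column per library. Only 17.0 to 37.3% of low values came within 0.02 of whole multiples of a step, so no reads were recovered and no count model was run; the number of libraries and an unknown depth limit the precision.

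Values were tested as log2(FPKM + 0.5), with no further scaling, for genes at 0.5 FPKM or more in at least 3 libraries. limma 3.58.1 (R 4.3.3) used all 9 libraries and a mean for each group, with trend and robust moderation, and Benjamini-Hochberg adjustment over all 15678 genes; the calculation was tested on simulated data. Levels relative to 12 endothelial markers were compared with exact permutation tests. Positions came from GENCODE M21 and promoters from RefSeq. A further 19 entries repeated a symbol. They were kept as separate entries under the same filter, and a symbol refers to its entry with the highest mean. The 7 genes, the lists and the tests were chosen with earlier results of these data known. All 7 genes are named, as are the pathway genes called in any comparison and, for each of the 7 called in OIR WT against RA WT, the 3 genes with the nearest profile. Some genes that the lists and counts include, 1 of them called, are not reported here by name. Other pathway and marker genes were named after their values were seen. Alternatives covered the pseudocount, the filter, scaling, moderation, the libraries fitted, a Y-linked covariate and a replicate block.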

Additional observations from a re-analysis of the deposited data

How the results depend on the processing

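Apln and Adm kept their calls against RA WT under all 20 alternatives in both OIR groups (largest limma adjusted p 0.0132), Aplnr kept its call in OIR KO against RA WT (largest 0.0199), and Ramp1 kept its call in OIR WT under the 19 that could give a value (largest 0.0378). A filter at 1 FPKM removed Ramp1 and Adm2, leaving 2 and 3 of the members called against RA WT. With each library left out in turn, the number of members called was 3 to 4 in both comparisons with RA WT and 0 to 1 between OIR KO and OIR WT, where Adm was called without OIR KO 2. Scaling by TPM, median ratios or quantiles reversed no member, and moved the median of all genes by less than 0.1. Leaving out libraries reversed Ramp2 in OIR WT minus RA WT (0.074 and 0.051, without RA WT 3 or OIR WT 2; range over libraries left out -0.75 to 0.074), Calcrl there (0.042, without OIR WT 3; range -0.33 to 0.042) and Ramp3 in OIR KO minus OIR WT (0.053, without OIR WT 3; range -0.092 to 0.053); none was called either way. Relative to endothelial markers, Aplnr in OIR WT minus RA WT became -0.022 with a pseudocount of 1 and -0.073 with Pecam1, Cdh5 and Tie1 only, and lay between -0.078 and 0.13 with a library left out. Relative Calcrl in OIR KO minus OIR WT became -0.046 with those 3 markers, and lay between -0.17 and 0.31 with a library left out. The cause of these reversals was not tested.

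Same-numbered libraries of different groups did not deviate together: their correlations lay between -0.353 and 0.134, 1 of 9 was over 0.1, and 1 of 9 libraries correlated best with its own number, so the numbers were not taken as pairs. With a replicate block 3, 0 and 3 members were called in OIR WT minus RA WT, OIR KO minus OIR WT and OIR KO minus RA WT; the member lost in the last was Ramp1 (adjusted p = 0.0561). Beyond the members the block also ended the calls of Gnai1 in OIR WT and of Pam in OIR KO, and all genes called were 1692, 8 and 1081, against 2503, 21 and 1636 without it.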
